A study of Mus musculus with 16 samples.

Results

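The replication-dependent histone genes of mouse chromosome 13 were followed through ChIP-seq peak lists of 3 histone marks. They were taken as the protein-coding genes with symbols beginning Hist1h, H1f, H2ac, H2bc, H3c or H4c at 21.7 to 24.0 Mb of chromosome 13 (build mm10), which gave 53 of 21883 protein-coding genes. The locus itself was selected on the measured fold, width and rank of its peaks in these lists, so those values are given as a description. Of these, 6 encode the linker histone H1, 13 encode H2A, 14 encode H2B, 9 encode H3 and 11 encode H4. The cells were CJ9, a mouse embryonic stem cell line, differentiated for 5 days towards endoderm or towards mesoderm and fixed with formaldehyde for 8 min. The groups were arid4b-delta endoderm, WT endoderm, arid4b-delta mesoderm and WT mesoderm, where arid4b-delta cells carry a deletion in Arid4b and WT cells are wild type. H3K4me3, H3K27ac and H3K27me3 were measured once in each group, so each mark has 4 peak lists and each group has 1 library. No test between groups was therefore possible, every value describes these libraries. Sequencing depth is unknown because peak lists hold no read totals, and the number of clones behind each genotype is not stated.

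Replication-dependent histone genes supply the histones that package newly copied DNA, and their transcription is tied to S phase. They are short genes without introns in their classical form, and their messages end in a stem-loop in place of a poly(A) tail. In mouse most of them lie in 1 large cluster on chromosome 13 (Hist1), with smaller clusters elsewhere. H3K4me3 is found at active and poised promoters, H3K27ac at active promoters and enhancers, and H3K27me3 is laid down by Polycomb repressor complexes. The Arid4b protein works within the Sin3-HDAC corepressor, whose deacetylases strip acetyl marks from histone tails. The series is titled for the role of Arid4b in lineage commitment, and setting arid4b-delta beside WT asks which of these marks differ at these genes when Arid4b is altered.

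The lists held 6150 to 35884 peaks, and each arid4b-delta list was longer than its WT counterpart. Of 5 endoderm marker genes (Sox17, Foxa2, Gata4, Gata6, Cxcr4), none had H3K27ac in any list. Of 5 mesoderm markers (T, Mesp1, Kdr, Pdgfra, Tbx6), 3 had H3K27ac in WT mesoderm and none in arid4b-delta mesoderm or in either endoderm list. Of 5 pluripotency markers 2 to 3 had H3K27ac in each list, and of 5 fibroblast markers, which feeder cells express, none did. The labelled endoderm was therefore not visible in the acetylation of its defining markers, and neither was the labelled mesoderm in arid4b-delta. In WT mesoderm the 3 marked mesoderm genes had folds of 6.40 to 7.73, where all peaks had a median of 7.05. Arid4b itself, also on chromosome 13, had H3K4me3 and H3K27ac peaks in all 4 groups, and since the labels do not say which part was deleted, peaks there say nothing about the deletion.

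The 53 genes fell into 3 subclusters when neighbours more than 200 kb apart were separated. Subcluster 1 held 17 genes within 117765 bp (chr13:21715711-21833475), subcluster 2 held 5 genes within 8537 bp (chr13:22035122-22043658), and subcluster 3 held 31 genes within 403870 bp (chr13:23531044-23934913). The stretches between the subclusters held tRNA genes, 31 between subclusters 1 and 2 and 46 between subclusters 2 and 3, and 36 Vmn1r genes, which encode vomeronasal pheromone receptors. All but 4 of the 53 gene models were under 1000 bp long. H2bc22, H2bc23, H2bc4 and H2bc6 have longer models, so their far end lies away from the start and a peak there can belong to a neighbour. A start and strand were available for 50 genes, all except H3c7, H2bc4 and H3c1.

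RefSeq promoter windows (build GRCm38.p6, 250 bases before to 50 bases after the start) show the sequence at the starts of these genes. The windows below are those of H2bc8, H2ac4 and H2ac22, at the 4 highest H3K27ac peaks described further on, of H4c6, whose H3K4me3 call differed between genotypes, of H1f1, which had the lowest H3K27ac fold of the marked histone genes in 3 of the 4 lists, and of the testis genes H1f6 and H2bc1. They are chr13:23571150-23571449 (plus strand) for H2bc8, chr13:23750838-23751137 (plus) for H2ac4, chr13:21787199-21787498 (minus) for H2ac22, chr13:23551619-23551918 (minus) for H4c6, chr13:23763418-23763717 (plus) for H1f1, chr13:23695561-23695860 (plus) for H1f6 and chr13:23934107-23934406 (minus) for H2bc1. Each is written 5′ to 3′ on the gene's strand, and capitals mark the TATA box letters TATAAA, the CCAAT box letters CCAAT and the octamer letters ATTTGCAT, found on either strand, so reverse complements are in capitals as well.
H2bc8: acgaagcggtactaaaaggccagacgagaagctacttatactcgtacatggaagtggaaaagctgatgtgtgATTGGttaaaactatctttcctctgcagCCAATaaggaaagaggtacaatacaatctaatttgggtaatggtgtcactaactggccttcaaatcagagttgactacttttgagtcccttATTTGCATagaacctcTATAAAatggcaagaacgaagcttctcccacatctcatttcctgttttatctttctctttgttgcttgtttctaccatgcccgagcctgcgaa
H2ac4: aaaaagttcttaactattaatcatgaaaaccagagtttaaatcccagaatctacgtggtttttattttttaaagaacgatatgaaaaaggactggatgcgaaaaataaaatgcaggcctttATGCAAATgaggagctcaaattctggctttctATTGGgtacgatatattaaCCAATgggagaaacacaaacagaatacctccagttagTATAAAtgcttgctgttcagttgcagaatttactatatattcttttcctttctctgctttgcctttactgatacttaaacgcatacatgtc
H2ac22: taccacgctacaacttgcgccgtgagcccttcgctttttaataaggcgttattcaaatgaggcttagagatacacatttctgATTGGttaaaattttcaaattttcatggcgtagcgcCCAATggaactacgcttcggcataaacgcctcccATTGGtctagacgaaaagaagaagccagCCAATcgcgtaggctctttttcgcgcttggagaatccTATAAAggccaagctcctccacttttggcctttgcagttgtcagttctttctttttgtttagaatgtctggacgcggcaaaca
H4c6: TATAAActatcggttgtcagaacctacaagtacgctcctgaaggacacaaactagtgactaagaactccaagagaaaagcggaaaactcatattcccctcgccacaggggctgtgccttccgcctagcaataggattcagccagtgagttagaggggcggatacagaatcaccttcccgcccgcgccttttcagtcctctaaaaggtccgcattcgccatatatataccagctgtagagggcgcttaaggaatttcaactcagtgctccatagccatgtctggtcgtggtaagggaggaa
H1f1: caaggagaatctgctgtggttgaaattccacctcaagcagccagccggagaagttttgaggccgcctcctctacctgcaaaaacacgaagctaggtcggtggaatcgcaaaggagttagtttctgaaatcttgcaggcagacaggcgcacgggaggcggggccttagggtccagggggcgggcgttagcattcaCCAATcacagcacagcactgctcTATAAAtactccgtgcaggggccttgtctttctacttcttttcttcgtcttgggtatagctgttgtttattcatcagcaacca
H1f6: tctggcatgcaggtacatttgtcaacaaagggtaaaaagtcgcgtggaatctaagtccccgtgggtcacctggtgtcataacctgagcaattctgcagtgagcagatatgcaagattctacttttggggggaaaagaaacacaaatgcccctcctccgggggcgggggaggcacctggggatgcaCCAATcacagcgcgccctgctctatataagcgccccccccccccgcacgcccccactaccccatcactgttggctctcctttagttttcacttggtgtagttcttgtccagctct
H2bc1: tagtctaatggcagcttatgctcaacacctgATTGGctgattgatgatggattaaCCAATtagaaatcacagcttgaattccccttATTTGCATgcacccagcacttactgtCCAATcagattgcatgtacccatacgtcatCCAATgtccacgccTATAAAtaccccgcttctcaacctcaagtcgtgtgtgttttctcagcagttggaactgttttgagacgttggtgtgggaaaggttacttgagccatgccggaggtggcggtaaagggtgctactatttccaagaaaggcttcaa

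TATAAA, the letters of the TATA box that places the start of transcription, was in 31 of the 50 histone gene windows, against 12.5% of 21186 windows of other protein-coding genes. On the gene's own strand and beginning 40 to 20 bases before the annotated start it was in 10 of 50, against 2.49% of the others. CCAAT, the letters bound by the factor NF-Y, was in 42 of 50 windows, against 38.1% of the others. Every H1, H2A, H2B and H3 window held CCAAT, and 3 of 11 H4 windows did. ATTTGCAT, the octamer bound by Oct1 (Pou2f1) at H2B genes, was in 5 of 13 H2A and 5 of 13 H2B windows and in no H1, H3 or H4 window, against 1.61% of the others. Matches on the 2 strands of a window can overlap each other, and a match is a description of letters, not of a bound site.

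The octamer windows include pairs that share sequence. In 9 head-to-head pairs, each an H2A gene beside an H2B gene, the starts lay 164 to 281 bp apart (median 180 bp), so 18 genes have promoter windows that overlap their partner's and cannot be counted as separate promoters. The histone windows had a median GC content of 45.2%, against 56.7% in the other windows, and a median CpG observed over expected of 0.752, against 0.566. By class the median GC content was 51.2% for H1, 44% for H2A, 41.7% for H2B, 39.3% for H3 and 48.3% for H4. Of the 50 windows, 9 shared a run of 36 bases with a window elsewhere in the cluster (H2ac23, H2ac24, H2ac7, H2bc23, H4c11, H4c12, H4c17, H4c18 and H4c9). How reads that map to several such copies were handled is not given in the sources used here, so peak values at these genes are uncertain. The windows hold only 50 bases of each gene, and the rest of the genes was not compared. Peak values at the other histone genes can therefore be uncertain as well.

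**Figure D1:**
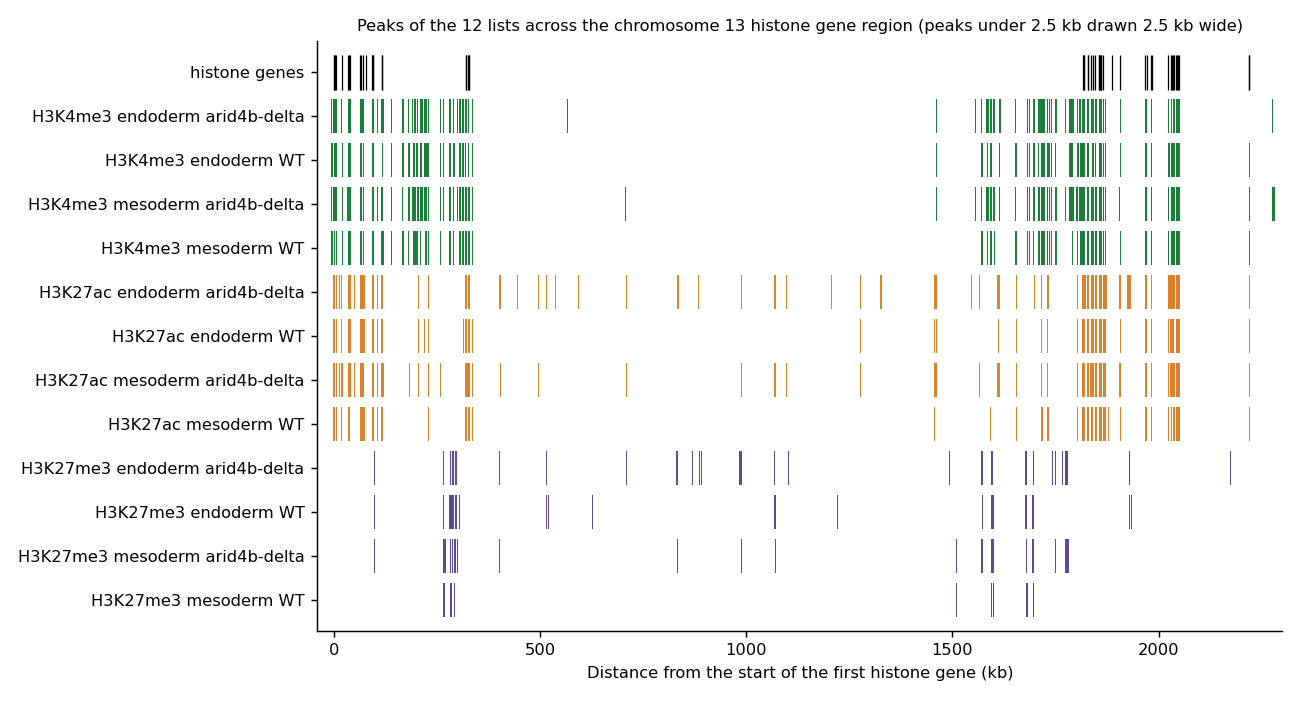
Histone genes (top row) and peaks of the 12 lists along the region, in kb from the start of the first histone gene, with arid4b-delta above WT in each lineage. H3K27ac peaks crowd at the 3 subclusters in all 4 groups. H3K4me3 peaks lie at the subclusters and also in the tRNA gene stretches between them. In all 4 groups H3K4me3 covers more of the stretch between subclusters 1 and 2 than of subcluster 3, and less than of subcluster 2. The H3K27me3 peaks lie mostly between the subclusters.

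A gene counted as marked if at least 1 bp of a peak fell within 1000 bp of its start or its end. In cultures of many cells, marks in fewer cells and less mark per cell cannot be told apart. For H3K27ac, 53 of 53 histone genes were marked in arid4b-delta and 52 in WT endoderm, against 26.4% of all protein-coding genes in arid4b-delta and 26.6% in WT. In mesoderm 52 were marked in arid4b-delta and 52 in WT, against 31.5% and 29.6% of all genes in those lists. The same 52 genes were marked in all 4 H3K27ac lists. The exception was H1f6, which encodes the testis linker histone H1t. The histone genes were chosen with these results known, so the counts describe them and carry no test.

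The acetylation peaks at the histone genes stood at the top of the lists. Fold enrichment is the authors' own ratio for each peak over its background, and it was read only within a list. The highest peak within reach of each gene had a median fold of 65.1 in arid4b-delta and 28.1 in WT endoderm, where the median of all peaks was 6.07 and 6.98. In mesoderm the gene median was 59.8 in arid4b-delta and 39.0 in WT, where all peaks had a median of 7.07 and 7.05. Every marked histone gene lay above its list's median in all 4 lists. Over all genes with H3K27ac, the median of the highest fold was 8.78 in arid4b-delta and 8.76 in WT endoderm, and 9.82 in arid4b-delta and 9.57 in WT mesoderm.

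Among the 10 highest peaks of the list, 10 lay at these histone genes in arid4b-delta endoderm and 1 in WT endoderm. In mesoderm the count was 9 in arid4b-delta and 3 in WT. Among the 100 highest, 39 lay at these genes in arid4b-delta and 15 in WT endoderm, and 39 in arid4b-delta and 20 in WT mesoderm. The lists differ in length, so these counts give each list's own order and no change between genotypes.

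The highest H3K27ac peak of the whole arid4b-delta endoderm list, of 35884, was chr13:23751071-23752167, with a fold of 100.1. It covered H2ac4, which encodes an H2A, and lay within 1000 bp of H3c2, an H3 gene. H2ac4 had folds of 100.1 in arid4b-delta and 32.9 in WT endoderm, and of 61.7 in arid4b-delta and 36.4 in WT mesoderm. In their own lists these peaks stood at rank 1 and 35 in endoderm arid4b-delta and WT, and at rank 15 and 79 in mesoderm arid4b-delta and WT.

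The highest peak of the arid4b-delta mesoderm list, of 22747, was chr13:21786029-21787300, over H2ac22 and beside its head-to-head partner H2bc22. H2ac22, another H2A gene, had H3K27ac folds of 90.2 in arid4b-delta and 30.4 in WT endoderm, and of 79.8 in arid4b-delta and 50.5 in WT mesoderm. This peak kept nearly the same place in all groups, starting at base 21786015 in arid4b-delta and 21786085 in WT endoderm, and at 21786029 in arid4b-delta and 21786020 in WT mesoderm.

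In WT endoderm the highest histone peak lay at the pair H2ac8 and H2bc8. In WT mesoderm it lay over H2bc8 and the neighbouring pair H2bc7 and H2ac7. H2ac8 had H3K27ac folds of 82.5 in arid4b-delta and 40.7 in WT endoderm, and of 79.1 in arid4b-delta and 58.2 in WT mesoderm. The WT endoderm peak (chr13:23569841-23571195) ranked 10 of 14216. The WT mesoderm peak (chr13:23571354-23575566) ranked 2 of 12496 by fold and 1 by width. It was 4213 bp wide and lay within 1000 bp of 5 histone genes. H2ac8 was among these but was not overlapped by the peak, whose fold it is given.

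Each class held strongly and less strongly acetylated members. The median of the highest H3K27ac fold in arid4b-delta endoderm was 74.8 for H2A, 70.4 for H2B, 65.1 for H3, 44.0 for H4 and 27.7 for H1. In WT endoderm it was 29.9 for H2A, 29.3 for H2B, 28.3 for H3, 25.7 for H4 and 16.6 for H1. In mesoderm the H1 median was again the lowest class value, 29.6 in arid4b-delta and 24.3 in WT, followed by H4 with 42.3 in arid4b-delta and 30.4 in WT. The H2A, H2B and H3 medians lay above these in both mesoderm lists. In arid4b-delta mesoderm the marked H1 genes, with at most 34.1, lay below every H2A, H2B and H3 gene, the lowest of which had 39.97, and in the other 3 lists the ranges of H1 and these classes overlapped. Neighbouring genes of different classes share peaks, so the classes are not separate measurements.

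Over the 4 H3K27ac lists, H1f1 had the lowest histone fold of both arid4b-delta lists and of WT mesoderm. Its values were 10.8 in arid4b-delta and 14.9 in WT endoderm, and 18.1 in arid4b-delta and 11.0 in WT mesoderm. Only H4c4, an H4 gene, was lower in WT endoderm, at 13.3. The other H1 genes H1f2, H1f3, H1f4 and H1f5, which encode the main somatic linker histones, stood higher than H1f1 in each list. Their highest folds were 36.4 at H1f2 in arid4b-delta and 26.2 at H1f2 in WT endoderm, and 34.1 at H1f3 in arid4b-delta and 39.0 at H1f4 in WT mesoderm.

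Within a list, members of a class differed. In arid4b-delta endoderm the H3K27ac folds of the H2A genes lay between 28.3 at H2ac1 and 100.1 at H2ac4, and those of the H3 genes between 30.2 at H3c6 and 100.1 at H3c2. In WT endoderm the H2A genes lay between 18.3 at H2ac1 and 40.7 at H2ac8, and the H3 genes between 19.2 at H3c6 and 33.1. The highest and lowest H2B genes were H2bc22 at 90.2 and H2bc1 at 28.3 in arid4b-delta endoderm, and H2bc8 at 40.7 and H2bc9 at 16.9 in WT endoderm. The H4 genes lay between 28.7 at H4c3 and 84.5 at H4c17 in arid4b-delta endoderm, and between 13.3 at H4c4 and 31.5 at H4c9 in WT endoderm. In mesoderm the H4 genes lay between 22.6 and 66.5 in arid4b-delta and between 26.4 and 44.8 in WT, and the H2A genes between 46.5 and 79.8 in arid4b-delta and between 30.3 and 58.2 in WT.

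**Figure D2:**
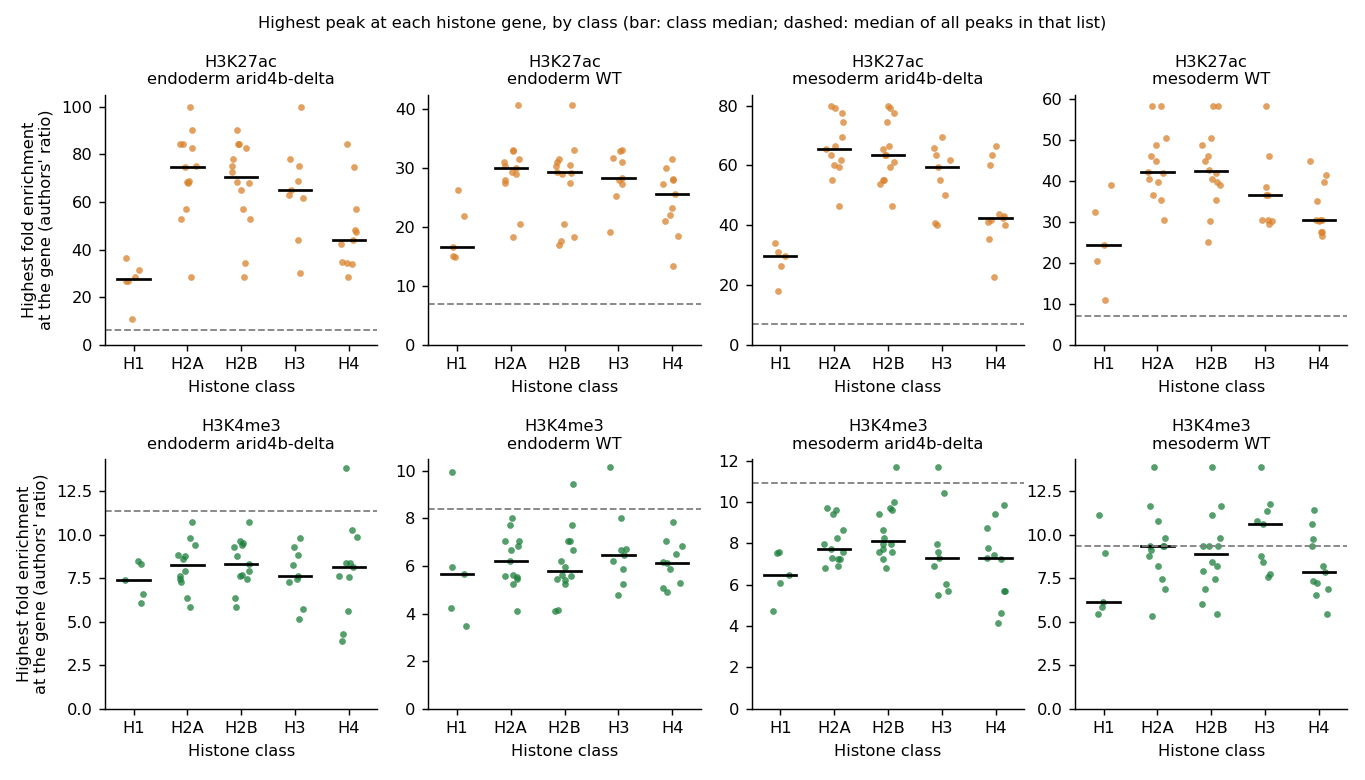
Highest fold enrichment within 1000 bp of each marked histone gene (points) by class, for H3K27ac (top) and H3K4me3 (bottom) in the 4 groups, each panel with its own linear axis from 0, since folds of different lists are not on a common scale. Bars are class medians and dashed lines the median of all peaks of that list: every H3K27ac point is above the line, and most H3K4me3 points are below it, with 22 of 52 above it in WT mesoderm.

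The acetylation peaks at the histone genes were also wide. The median width of H3K27ac peaks at these genes was 936.5 bp in arid4b-delta and 1113.5 bp in WT endoderm, against 216 and 274 bp over the full lists. In mesoderm it was 1026 bp in arid4b-delta and 1113 bp in WT, against 264 and 294 bp. The widest histone peak of the arid4b-delta mesoderm list measured 4234 bp (chr13:21830988-21835221), had a fold of 60.1 and spanned H4c18 and H2ac24. It also reached H4bc24, a gene named as a histone that the choice of symbols leaves out.

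A single acetylation peak often reached several genes. The 53 genes lay within 1000 bp of 78 H3K27ac peaks in arid4b-delta and 68 in WT endoderm, and of 73 in arid4b-delta and 57 in WT mesoderm. Of these peaks 38 and 34 in endoderm, arid4b-delta and WT, and 33 and 31 in mesoderm, arid4b-delta and WT, lay near at least 2 histone genes. Values of neighbouring members are therefore not independent.

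Most H3K27ac peaks at these genes overlapped a peak of the other genotype. Of the arid4b-delta endoderm peaks at histone genes 94.9% overlapped a WT peak by at least 1 bp, against 9697 of all 35884 arid4b-delta endoderm peaks. Of the WT endoderm peaks at histone genes 98.5% overlapped an arid4b-delta peak, against 70.8% of all WT endoderm peaks. In mesoderm 87.7% of arid4b-delta and 96.5% of WT peaks at histone genes overlapped, against 40.6% and 73.2% of the full lists. The histone peaks were wider, with a median of 936.5 against 216 bp in arid4b-delta endoderm, and wide peaks reach an overlap of 1 bp more easily. The shares were not matched for width or fold.

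Covered length was close between genotypes. H3K27ac peaks at histone genes covered 70161 bp in arid4b-delta and 72136 bp in WT endoderm, a ratio of 0.973, while the full lists covered 2.13 times as much in arid4b-delta. In mesoderm they covered 76511 bp in arid4b-delta and 72773 bp in WT, a ratio of 1.05, against 1.70 for the full lists. The full lists also hold peaks away from genes. Of histone genes with a peak in either endoderm list, 49.1% had more covered bases in arid4b-delta and 50.9% in WT. Among all protein-coding genes with such a peak it was 44.5% and 55.2%. In mesoderm it was 61.5% and 38.5% of the histone genes, against 53.3% and 46.6% of all genes.

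H3K4me3 marked the same genes but did not stand out in height. In endoderm 50 of 53 were marked in arid4b-delta and 51 in WT, against 58.6% and 53.3% of all protein-coding genes. In mesoderm 52 were marked in arid4b-delta and 52 in WT, against 59.7% and 55.9%. All 4 H3K4me3 lists marked 49 of the genes, 3 lists marked another 3, and H1f6 was marked in none.

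The highest H3K4me3 fold at each marked gene had a median of 8.02 in arid4b-delta and 6.13 in WT endoderm, where all peaks had a median of 11.4 and 8.41. In mesoderm it was 7.59 in arid4b-delta and 8.86 in WT, where all peaks had 10.9 and 9.32. Over all genes with H3K4me3 the median was 18.8 in arid4b-delta and 11.4 in WT endoderm, and 19.7 in arid4b-delta and 12.95 in WT mesoderm. Above the list's median fold were 1 histone gene in arid4b-delta and 3 in WT endoderm, and 2 in arid4b-delta and 22 in WT mesoderm. No histone gene of the region had an H3K4me3 peak among the 100 highest of any list.

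The class medians of H3K4me3 lay close together, between 7.38 and 8.35 in arid4b-delta and between 5.67 and 6.45 in WT endoderm. In mesoderm they lay between 6.45 and 8.13 in arid4b-delta and between 6.11 and 10.6 in WT. The highest member of each list differed. It was H4c8, an H4 gene, at 13.8 in arid4b-delta endoderm and H3c11, an H3 gene, at 10.1 in WT endoderm. It was the H2bc3 and H3c3 neighbours at 11.7 in arid4b-delta mesoderm, and the neighbours H2bc7, H2ac7 and H3c4 at 13.9 in WT mesoderm.

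The lowest H3K4me3 values were those of H4c2 at 3.89 in arid4b-delta endoderm, H1f3 at 3.49 in WT endoderm, H4c6 at 4.15 in arid4b-delta mesoderm and H2ac10 at 5.35 in WT mesoderm. The H3 gene H3c11 stood at different places in the order of the lists. Its H3K4me3 folds were 5.75 in arid4b-delta and 10.1 in WT endoderm, and 5.50 in arid4b-delta and 11.3 in WT mesoderm. It ranked 46 of the marked histone genes in arid4b-delta and 1 in WT endoderm, and 49 in arid4b-delta and 8 in WT mesoderm. H2ac22, with H3K27ac at rank 2 of the arid4b-delta endoderm list and 59 of the WT endoderm list, had H3K4me3 folds of 9.44 in arid4b-delta and 4.10 in WT endoderm, rank 14256 of 25272 and 21186 of 22292.

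The widest H3K4me3 peak of the region lay at a histone gene in 2 lists. In arid4b-delta endoderm it was chr13:23533864-23536701, 2838 bp wide, over H2ac10 and H3c8, and in WT mesoderm it was chr13:23738861-23740746, 1886 bp wide, over H1f2. In the others it lay at tRNA genes. The H3K4me3 peaks at the histone genes had a median width of 484 bp in arid4b-delta and 345 bp in WT endoderm, against 682 and 476 bp over the full lists. In mesoderm it was 563 bp in arid4b-delta and 559 bp in WT, against 694 and 638 bp.

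H3K4me3 peaks at histone genes covered 43791 bp in arid4b-delta and 24483 bp in WT endoderm, a ratio of 1.79, against 1.66 for the full lists. In mesoderm they covered 51566 bp in arid4b-delta and 38413 bp in WT, a ratio of 1.34, against 1.45. Covered length was thus larger in arid4b-delta at the histone genes by about as much as over the whole list. By gene, 46 of 53 had more H3K4me3 covered bases in arid4b-delta and 6 had more in WT, in endoderm and again in mesoderm. Over all protein-coding genes 57.8% had more in arid4b-delta and 0.887% in WT endoderm, and 57.1% in arid4b-delta and 2.66% in WT mesoderm. Of the genes with a peak in either list, 98.5% of all genes and 88.5% of the histone genes had more in arid4b-delta endoderm, and 95.5% of all and 88.5% of the histone genes in arid4b-delta mesoderm, so the direction at the histone genes was that of the lists as a whole. Of the arid4b-delta H3K4me3 peaks at histone genes, 71.8% overlapped a WT peak in the endoderm lists, against 65.4% of all arid4b-delta peaks. In the mesoderm lists it was 79.7%, against 65.9%.

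Both marks covered more histone genes just inside the start than at it, and coverage dipped just before the start. Other starts had this shape as well, and their shares are given beside. Of the 50 genes with a known start, H3K4me3 peaks covered base 250 downstream of the start in 42 in arid4b-delta and 38 in WT endoderm, and in 46 in arid4b-delta and 47 in WT mesoderm. They covered the start itself in 7 in arid4b-delta and 3 in WT endoderm, and in 12 in arid4b-delta and 8 in WT mesoderm. At other genes H3K4me3 covered 48.6% of starts in arid4b-delta and 28.7% in WT endoderm, and 52.0% in arid4b-delta and 41.3% in WT mesoderm. At base 250 downstream it covered 54.7% of them in arid4b-delta and 46.5% in WT endoderm, and 55.9% in arid4b-delta and 51.3% in WT mesoderm.

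H3K27ac peaks covered base 250 downstream in 48 of 50 genes in all 4 lists. They covered the start in 29 in arid4b-delta and 29 in WT endoderm, and in 33 in arid4b-delta and 39 in WT mesoderm. At other genes they covered base 250 downstream at 15.5% in arid4b-delta and 15.2% in WT endoderm. In mesoderm it was 20.4% in arid4b-delta and 19.9% in WT. They covered 7.01% of the other starts themselves in arid4b-delta and 6.76% in WT endoderm, and 10.1% in arid4b-delta and 10.6% in WT mesoderm. Base 100 upstream, inside the window that holds the TATA and CCAAT letters, was covered by H3K27ac in 6 genes in arid4b-delta and 8 in WT endoderm, and in 14 in arid4b-delta and 21 in WT mesoderm. These counts were above the other starts, of which H3K27ac covered that base at 5.89% in arid4b-delta and 6.10% in WT endoderm, and at 8.36% in arid4b-delta and 8.56% in WT mesoderm. H3K4me3 covered it in 3 genes in arid4b-delta and 0 in WT endoderm, and in 3 in arid4b-delta and 0 in WT mesoderm, below the other starts, at 37.5% in arid4b-delta and 19.6% in WT endoderm, and 41.7% in arid4b-delta and 28.3% in WT mesoderm. Coverage was higher again further upstream, where a peak can belong to a neighbouring histone gene. For 18 genes the head-to-head partner starts 164 to 281 bp upstream, so base 500 upstream lies past the partner's start. H3K4me3 covered base 500 upstream in 26 genes in arid4b-delta and 22 in WT endoderm, and in 32 in arid4b-delta and 28 in WT mesoderm. H3K27ac covered base 500 upstream in 39 genes in arid4b-delta and 40 in WT endoderm, and in 42 in arid4b-delta and 40 in WT mesoderm. At the other starts H3K4me3 covered that base at 29.3% in arid4b-delta and 18.5% in WT endoderm. In mesoderm it was 31.8% in arid4b-delta and 23.4% in WT. H3K27ac covered it there at 6.25% in arid4b-delta and 7.50% in WT endoderm, and at 8.56% in arid4b-delta and 7.95% in WT mesoderm. An H3K27ac peak, of the gene itself or of a neighbour, covered base 1000 downstream in 36 histone genes in arid4b-delta and 39 in WT endoderm. In mesoderm it was 38 in arid4b-delta and 34 in WT. H3K4me3 covered that base in 15 in arid4b-delta and 5 in WT endoderm, and in 28 in arid4b-delta and 9 in WT mesoderm.

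The peak summits lay at the same distance. The median offset of the nearest summit was 225 bp downstream of the start in arid4b-delta and 258 bp in WT endoderm for H3K4me3, and 251 bp in arid4b-delta and 232 bp in WT mesoderm. For H3K27ac it was 229 bp in arid4b-delta and 220 bp in WT endoderm, and 244 bp in arid4b-delta and 236 bp in WT mesoderm. At most 1 gene per list had a summit within 100 bp of its start.

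**Figure D3:**
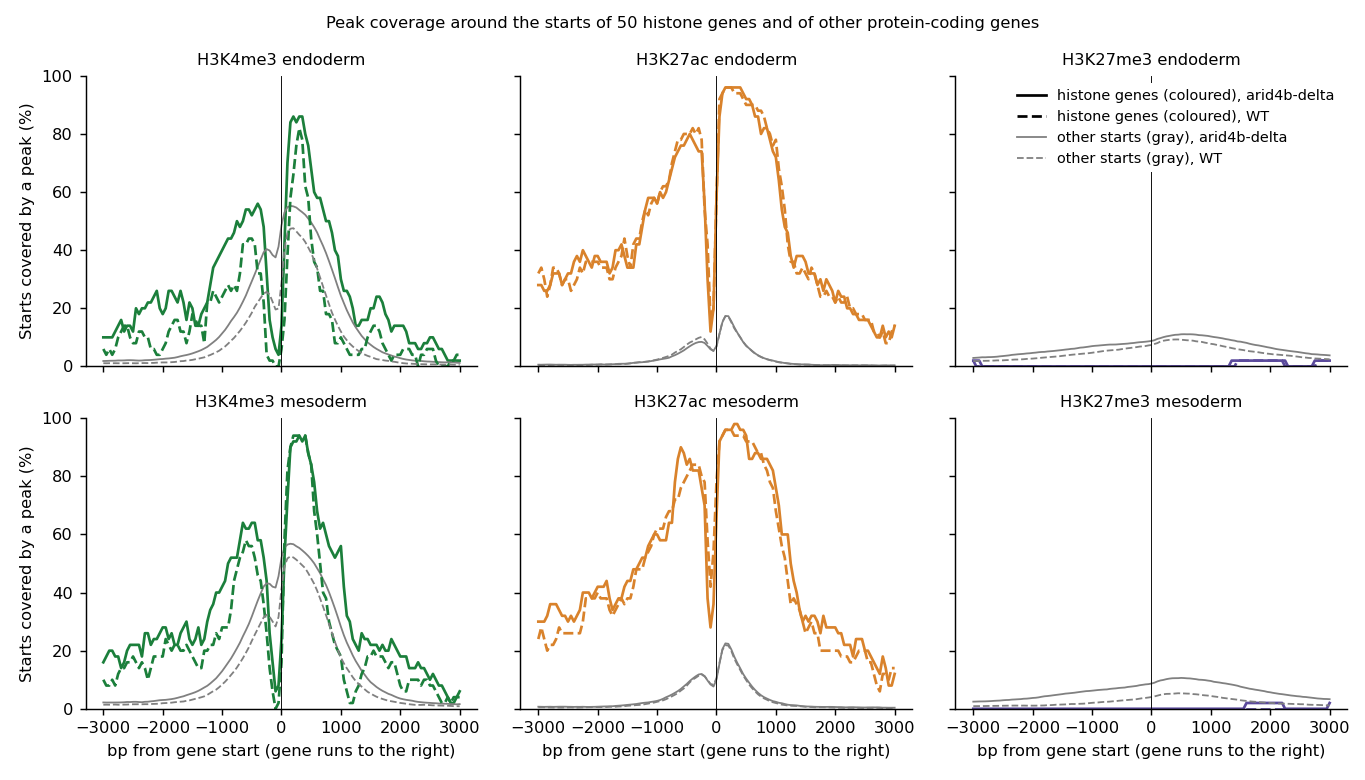
Percent of starts covered by a peak against distance from the start in bp, for 50 histone genes (coloured) and 21186 other starts (gray), with arid4b-delta solid and WT dashed. H3K4me3 and H3K27ac dip just before the start of the histone genes and are highest about 250 bp inside them, where H3K27ac covers 48 of 50 genes in all 4 groups, while H3K27me3 stays near 0. The other starts also dip in H3K4me3 and H3K27ac just before the start.

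H3K27me3 was nearly absent from the histone genes. It marked 1 of 53 in arid4b-delta and 0 in WT endoderm, against 17.2% and 14.4% of all protein-coding genes. In mesoderm it marked 0 in arid4b-delta and 0 in WT, against 16.3% and 9.34%. The 1 gene was H4c17, an H4 gene, through a peak 940 bp from its end (chr13:21813090-21813964, fold 1.70). WT endoderm had a peak in almost the same place (chr13:21813158-21814006, fold 2.10), 1008 bp from H4c17 and so just outside the window, and arid4b-delta mesoderm had another at 1180 bp (fold 1.77).

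Most H3K27me3 peaks of the region lay between the subclusters, in stretches of 201646 and 1487385 bp of the 2300000 bp region. They covered 5.17% and 2.27% of these stretches in arid4b-delta and 4.86% and 0.973% in WT endoderm. In mesoderm it was 6.22% and 1.34% in arid4b-delta, and 1.41% and 0.357% in WT. Over the region H3K27me3 covered 1.77 times as many bases in arid4b-delta as in WT in endoderm, and 4.07 times in mesoderm. Over the full lists the ratios were 1.51 in endoderm and 2.45 in mesoderm. No subcluster was covered by more than 0.743% in any list. The region held 34 H3K27me3 peaks in arid4b-delta and 27 in WT endoderm, and 24 in arid4b-delta and 11 in WT mesoderm. That was 0.204% of the full list's peaks in arid4b-delta and 0.261% in WT endoderm. In mesoderm it was 0.243% of the peaks in arid4b-delta and 0.179% in WT. Subcluster 2 held none in any list. Subcluster 1 held 1 in arid4b-delta and 1 in WT endoderm, and 1 in arid4b-delta and 0 in WT mesoderm. Subcluster 3 held 2 in arid4b-delta and 2 in WT endoderm and none in either mesoderm list, each at least 21589 bp from a histone gene. The others lay in the stretches between the subclusters, 6 and 9 between subclusters 1 and 2 in arid4b-delta and WT endoderm and 8 and 5 in arid4b-delta and WT mesoderm, and 25 and 15 between subclusters 2 and 3 in arid4b-delta and WT endoderm and 15 and 6 in arid4b-delta and WT mesoderm.

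Few histone genes were marked in 1 genotype only. For H3K27ac in endoderm it was 1 gene in arid4b-delta and 0 in WT, against 4.49% and 4.7% of all genes, and in mesoderm 0 and 0, against 5.61% and 3.71%. For H3K4me3 in endoderm it was 1 in arid4b-delta and 2 in WT, against 5.37% and 0.101%, and in mesoderm 0 and 0, against 3.92% and 0.119%. For H3K27me3 it was H4c17 in arid4b-delta endoderm and none in WT, against 4.89% and 2.05%, and in mesoderm 0 and 0, against 7.69% and 0.727%. Unmarked in both genotypes for H3K4me3 was 1 histone gene in endoderm, against 41.3% of all genes, and 1 in mesoderm, against 40.2%. For H3K27ac it was 0 in endoderm, against 68.9%, and 1 in mesoderm, against 64.8%. For H3K27me3 it was 52 in endoderm, against 80.7%, and 53 in mesoderm, against 83%.

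H4c6, an H4 gene, had H3K4me3 in arid4b-delta endoderm (chr13:23550664-23551548, fold 5.61) and no WT peak nearer than 3571 bp. In mesoderm it was marked in both, with folds of 4.15 in arid4b-delta and 6.53 in WT. Its H3K27ac was present in all 4 lists, with folds of 47.3 in arid4b-delta and 23.2 in WT endoderm, and 41.1 in arid4b-delta and 41.4 in WT mesoderm. The H3K4me3 peaks of this gene ranked 19402 of 25272 in arid4b-delta endoderm, 24460 of 26852 in arid4b-delta mesoderm and 14781 of 21752 in WT mesoderm, all in the lower part of their lists.

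H2bc1 and H2ac1 encode the testis histones TH2B and TH2A and form a head-to-head pair at the far end of subcluster 3. Both were without H3K4me3 in arid4b-delta endoderm and shared 1 peak in WT endoderm (chr13:23933769-23933929, 161 bp wide, fold 5.58). In mesoderm they were marked in both genotypes, with folds of 9.60 in arid4b-delta and 9.32 in WT. Their H3K27ac folds were 28.3 in arid4b-delta and 18.3 in WT endoderm, and 46.5 in arid4b-delta and 35.4 in WT mesoderm. These acetylation peaks were narrow for the cluster, at most 347 bp wide in arid4b-delta and 335 bp in WT endoderm, and 342 bp in arid4b-delta and 340 bp in WT mesoderm.

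H1f6, which encodes the testis linker histone H1t, had no H3K4me3 or H3K27me3 peak in any list. Its only call was H3K27ac in arid4b-delta endoderm, from a peak over the neighbouring gene H4c3 whose nearer edge lay 969 bp away (chr13:23697514-23698445, fold 28.7). The corresponding WT endoderm peak at H4c3 (fold 18.4) lay 1067 bp away. The testis genes thus differed among themselves, with the TH2A and TH2B genes acetylated in all 4 groups and H1f6 without a peak of its own.

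The window of 1000 bp was the only threshold of the choice of peaks. For H3K27ac in WT endoderm the last peak inside it was 962 bp from H2bc22 with a fold of 8.19 and the first outside was 1038 bp from H4c18 with a fold of 5.08. For H3K4me3 in arid4b-delta endoderm the corresponding peaks lay 807 bp from H2bc4 with a fold of 4.68 and 1108 bp from H2bc6 with a fold of 4.20.

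The peaks of the whole region were split by what lay within 1000 bp of them. Of the H3K27ac peaks 78 of 134 in arid4b-delta and 68 of 91 in WT endoderm lay at a histone gene, and 73 of 115 in arid4b-delta and 57 of 73 in WT mesoderm. H3K27ac peaks near no annotated histone, tRNA or other protein-coding gene numbered 48 in arid4b-delta and 13 in WT endoderm, and 33 in arid4b-delta and 6 in WT mesoderm. The stretch between subclusters 2 and 3 held 44 H3K27ac peaks in arid4b-delta and 16 in WT endoderm, and 30 in arid4b-delta and 12 in WT mesoderm. The full H3K27ac lists held 35884 peaks in arid4b-delta and 14216 in WT endoderm, and 22747 in arid4b-delta and 12496 in WT mesoderm. Of these the whole region held 0.373% in arid4b-delta and 0.640% in WT endoderm, and 0.506% in arid4b-delta and 0.584% in WT mesoderm. The lists differ in length, so these counts give no change between genotypes. The highest H3K4me3 peak of the region was not at a histone gene in any list. It lay at Abt1 with a fold of 27.1 in arid4b-delta and 18.5 in WT endoderm, at a tRNA gene with 25.4 in arid4b-delta mesoderm, and at the zinc finger gene Zfp322a with 18.9 in WT mesoderm.

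**Figure D4:**
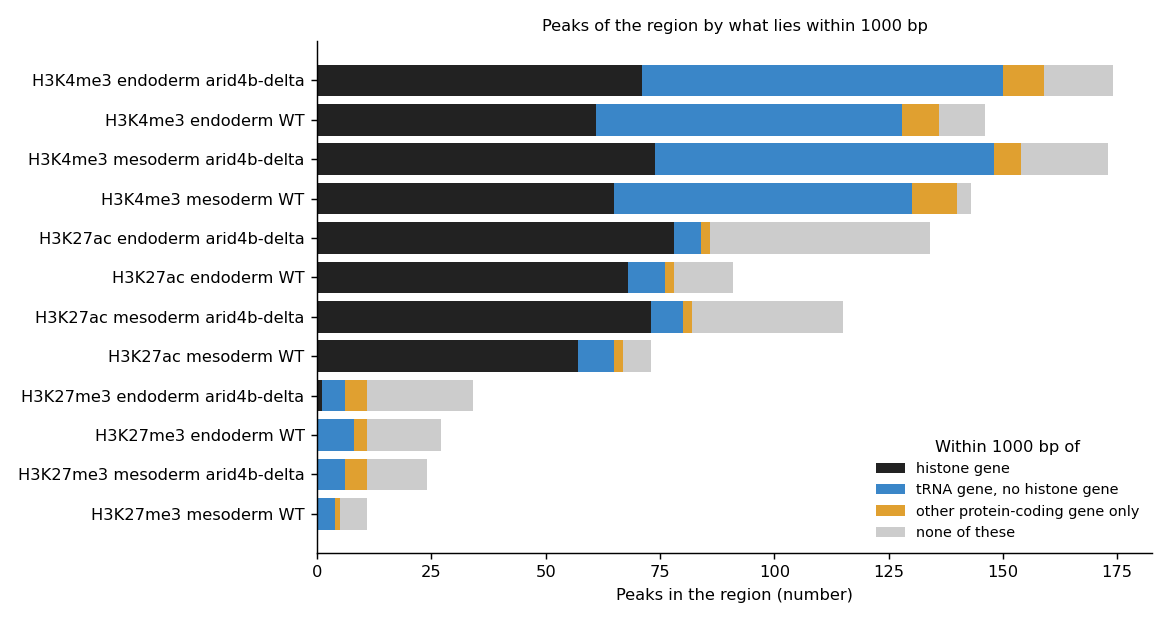
Number of peaks of the region in each list, split by whether a histone gene, otherwise a tRNA gene, otherwise another protein-coding gene, or none of these lies within 1000 bp, with arid4b-delta above WT. Histone genes take most H3K27ac peaks, H3K4me3 is divided between histone and tRNA genes, and most H3K27me3 peaks are near neither.

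The tRNA genes that share the region had a different pattern. Transfer RNA genes are read by RNA polymerase III, whereas histone genes are read by RNA polymerase II. Of 79 tRNA genes H3K4me3 marked 75 in arid4b-delta and 65 in WT endoderm, and 75 in arid4b-delta and 62 in WT mesoderm. H3K27ac marked 10 in arid4b-delta and 13 in WT endoderm, and 13 in arid4b-delta and 9 in WT mesoderm. H3K4me3 was found in arid4b-delta only at 10 of these tRNA genes in endoderm and 13 in mesoderm, and in WT only at none in either lineage. Over all 408 tRNA genes, H3K4me3 marked 67.2% in arid4b-delta and 61.0% in WT endoderm, and 69.4% in arid4b-delta and 60.8% in WT mesoderm. It was in arid4b-delta only at 26 of the 408 and in WT only at 1 in endoderm, and in arid4b-delta only at 35 and in WT only at 0 in mesoderm. H3K27ac marked 24.3% of the 408 in arid4b-delta and 28.7% in WT endoderm, against 12.7% and 16.5% of the 79. In mesoderm it marked 29.2% of the 408 in arid4b-delta and 28.2% in WT, against 16.5% and 11.4% of the 79. The 36 Vmn1r genes had no peak of any of the 3 marks within 1000 bp in any list.

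Histone genes outside the region are the closest comparison. The 11 other replication-dependent histone genes were marked by H3K27ac in all 4 lists, 11 of 11, with a median highest fold of 46.0 in arid4b-delta and 22.4 in WT endoderm, and 46.0 in arid4b-delta and 37.0 in WT mesoderm. None had H3K27me3. Their H3K4me3 medians were 10.8 in arid4b-delta and 7.72 in WT endoderm, and 13.3 in arid4b-delta and 9.17 in WT mesoderm. High acetylation was thus also seen at histone genes elsewhere, with H3K4me3 nearer to the list medians. Of the 100 highest H3K27ac peaks, 6 in arid4b-delta and 1 in WT endoderm, and 6 in arid4b-delta and 4 in WT mesoderm, lay at these other genes.

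The 11 genes listed as replacement histone genes, among them H2ax, H2az1 and Cenpa, were acetylated in part. H3K27ac marked 6 in arid4b-delta and 7 in WT endoderm, and 6 in arid4b-delta and 8 in WT mesoderm. Those marked had a median H3K27ac fold of 17.6 in arid4b-delta and 8.37 in WT endoderm, and of 22.1 in arid4b-delta and 8.97 in WT mesoderm. Some stood near the top of a list: H2ax had a fold of 42.1 in arid4b-delta and 17.5 in WT endoderm, and H2az1 had 37.3 in arid4b-delta and 21.6 in WT endoderm, and 40.7 in arid4b-delta and 39.9 in WT mesoderm. Their median H3K4me3 fold was 23.5 in arid4b-delta and 13.4 in WT endoderm, and 23.5 in arid4b-delta and 14.4 in WT mesoderm, above the median of each list. Of 19 genes for factors of histone gene transcription and mRNA 3′ end formation, such as Npat, Slbp and Lsm11, all 19 had H3K4me3 in every list. H3K27ac marked 15 of them in arid4b-delta and 14 in WT endoderm, and 14 in arid4b-delta and 16 in WT mesoderm, with median folds of 7.89 in arid4b-delta and 8.28 in WT endoderm and of 11.3 in arid4b-delta and 10.48 in WT mesoderm.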

How the data were processed

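CJ9 cells, arid4b-delta or WT, were profiled after 5 days towards endoderm or mesoderm. Bowtie2, Picard, MACS2 and build mm10 are named per the submitters' processing notes. Versions and settings, including the handling of reads that map to several places, are not given in the sources used here. The 12 lists were deposited per library, in narrow format for H3K4me3 and H3K27ac and in broad format for H3K27me3. The deposited columns are the authors' score, their fold enrichment (a linear ratio), their −log10 p and −log10 q values and, in narrow lists, the summit position in bp. The 4 input samples were not used here. Depth is unknown, so nothing was scaled to it.

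Peaks were joined to a RefSeq gene table of GRCm38.p6 by overlap of at least 1 bp with the 1000 bp either side of a gene end. Ranks are by fold within a list. Promoter windows came from RefSeq (GRCm38.p6). Of the 53 histone genes 50 matched a window. H2bc6 has 2 windows and the farther upstream was used. Computation used Python 3.11.15 with pandas 2.3.3 and numpy 2.4.6, figures were drawn with matplotlib 3.10.9, and the counting was tested on simulated data. The genes and lists were chosen with earlier results of these data known. Any histone gene of the region could be named, with full values for those marked in 1 genotype only, for the highest and lowest of each class and for the testis genes. Alternatives were windows of 500 and 2500 bp, lists matched in length, the upper 50% by fold, peaks of at least 500 bp, the nearest gene only, the start only and no testis genes, and, added after seeing the data, overlap with the gene itself.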

Additional observations from a re-analysis of the deposited data

How the results depend on the processing

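The 12 counts of marked histone genes were recomputed under 9 alternatives, giving 108 values, of which 95 stayed within 1.5 times the count reported. The H3K27ac counts did so under all 9. When only the upper 50% of peaks by fold was kept, H3K4me3 marked 1 gene in arid4b-delta and 3 in WT endoderm, and 2 in arid4b-delta and 24 in WT mesoderm. Peaks of at least 500 bp left 19 genes with H3K4me3 in WT endoderm. The H3K27me3 call at H4c17 in arid4b-delta endoderm was 0 with a window of 500 bp, in lists matched in length, in the upper 50% by fold, at the start only and for peaks over the gene itself, an alternative chosen after seeing the data. With a window of 2500 bp H3K27me3 marked 2 genes in arid4b-delta and 2 in WT endoderm, and 2 in arid4b-delta mesoderm. No paired analysis was possible because each group has 1 library. With 1 library per group the spread between cultures is unknown, and peak lists show neither depth nor signal below the authors' threshold.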
